A study of Rattus norvegicus with 15 samples.

Results

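The microRNAs (miRNAs) miR-103 and miR-107 were followed across 3 groups of rat hearts. They were taken from the arrays by name, as every spot whose miRNA name was rno-miR-103 or rno-miR-107. This gave 2 of the 350 rat miRNAs on the array, 4 of its 938 probes and 40 of its 7000 rat miRNA spots.

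All hearts came from male Sprague-Dawley rats, and each of the 3 groups had 5 one-colour arrays. Control rats received vehicle. The DM (diabetes mellitus) rats received 1 injection of streptozotocin, a toxin of the insulin-producing beta cells, at 60 mg/kg into the tail vein, and had plasma glucose above 300 mg/dL. The GF (glucose fluctuation) rats received the same streptozotocin and were then fasted for 24 h and given insulin at 0.5 IU/kg into the peritoneal cavity. Fasting and insulin were given only to the GF group, so their effects and those of the glucose swings cannot be told apart. In both diabetic groups the toxin, the loss of insulin and the high glucose cannot be told apart either. The ages of the rats, the time between treatment and sampling, and whether each array held a different animal are not given in the sources used here. Every p-value therefore rests on how far these deposited samples spread, and that spread may be technical.

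A miRNA is a short RNA that guides a silencing complex to messenger RNAs, mainly through pairing of its seed, the bases near its 5′ end. The miR-103 and miR-107 genes lie inside genes for pantothenate kinase, the enzyme that starts coenzyme A synthesis. In liver and fat of mice, raised miR-103 and miR-107 are known to impair insulin sensitivity, with caveolin-1, a partner of the insulin receptor, as a direct target. In heart muscle miR-103 and miR-107 have been linked to programmed necrosis through the adaptor protein FADD.

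The mature sequences show why these miRNAs are described together and why their signals need care. They are given 5′ to 3′ from RefSeq (build GRCr8), with the seed, bases 2 to 8, in capitals.
miR-103-3p: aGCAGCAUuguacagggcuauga
miR-107-3p: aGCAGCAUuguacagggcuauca
Both are 23 bases long and share 22 of them. The 1 substitution from miR-103 to miR-107 is G22C, counted from 1 at the 5′ end. Among the 693 mature rat sequences in the RefSeq table used here, 2 carry this seed, miR-103-3p and miR-107-3p. The probe sequences of the array were not used here, so how far a probe for one binds the other was not tested.

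The rat genome holds a pair of hairpins for miR-103 and a single one for miR-107. They are shown because each lies within a different pantothenate kinase gene, on the same strand, and yields a nearly identical product. The mature bases 52 to 74 are in capitals. Mir103a1 is at chr10:20748474-20748559 (plus strand, GRCr8) within Pank3, Mir103a2 at chr3:138963227-138963312 (plus strand) within Pank2, and Mir107 at chr1:241750418-241750504 (minus strand) within Pank1.
Mir103a1: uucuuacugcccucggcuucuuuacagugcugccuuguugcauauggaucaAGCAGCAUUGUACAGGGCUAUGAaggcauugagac
Mir103a2: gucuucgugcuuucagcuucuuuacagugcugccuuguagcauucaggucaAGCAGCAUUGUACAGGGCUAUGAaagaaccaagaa
Mir107: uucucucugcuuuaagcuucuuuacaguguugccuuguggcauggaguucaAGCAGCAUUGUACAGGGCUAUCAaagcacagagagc
Both miR-103 hairpins give the same mature miRNA, so the array signal of miR-103 sums whatever both genes made.

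The arrays held between 166 and 190 detected miRNAs each, and no spot was saturated (0 on all 15 arrays). Pairs of arrays were compared with the scanner's stated error through a reduced chi-square, which is 1 where arrays differ by that error alone. In 5 of 105 pairs it lay between 0.243 and 0.63, and in the other 100 it was at least 1.07. All 5 pairs joined arrays of the same group on different slides. Since they differed by less than the stated error, each pair was averaged and counted as 1 sample. This left 4 control samples (replicates 1 and 3 together, 2, 4 and 5), 3 DM samples (1, 2 and 4 together, 3 and 5 together) and 3 GF samples (1 and 5 together, 2 and 4 together, 6). The 75th percentile of the signal, a measure of array brightness, was 2205 ± 261 (SD, n = 4) in control, 2027 ± 256 (n = 3) in DM and 2780 ± 529 (n = 3) in GF samples. Levels below are log2 signals scaled to that percentile, and differences are log2 differences between group means.

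Both miRNAs were measured firmly. All 4 probes were well above background on 15 of 15 arrays, with 8 to 10 usable spots per array. The brighter miR-103 probe (A_26_P00001304) gave signals from 784 to 1552, which were 15.4 to 28.8 times the local background. Its repeated spots had a median coefficient of variation of 6.82% within an array. The brighter miR-107 probe (A_26_P00001308) gave signals from 1766 to 3479, which were 35.5 to 71.8 times the local background, and a median coefficient of variation of 6.33%. The brighter probe stands for each miRNA unless stated otherwise. Signals of different probes depend on the probes, so the level of miR-107 is not set against that of miR-103.

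miR-103 was nearly constant over the 10 heart samples. In control hearts its scaled log2 signal was 9.97 (replicates 1 and 3), 9.96 (replicate 2), 9.99 (replicate 4) and 10.04 (replicate 5). In DM hearts it was 9.99 (replicate 1), 10.06 (replicates 2 and 4) and 9.99 (replicates 3 and 5). In GF hearts it was 9.996 (replicates 1 and 5), 9.97 (replicates 2 and 4) and 9.84 (replicate 6). GF replicate 6 was the lowest sample and DM replicates 2 and 4 the highest, and the groups overlapped in every comparison. The whole range was 0.22, and the group means were 9.99 ± 0.0358 (SD, n = 4) in control, 10.01 ± 0.0436 (n = 3) in DM and 9.93 ± 0.0841 (n = 3) in GF hearts.

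miR-107 varied more, with a range of 0.44 over the same samples. In control hearts its scaled log2 signal was 11.14 (replicates 1 and 3), 10.96 (replicate 2), 11.18 (replicate 4) and 11.34 (replicate 5). In DM hearts it was 11.20 (replicate 1), 11.23 (replicates 2 and 4) and 11.39 (replicates 3 and 5). In GF hearts it was 11.32 (replicates 1 and 5), 11.15 (replicates 2 and 4) and 11.33 (replicate 6). Control replicate 2 was the lowest sample, and the groups overlapped here too. Control replicate 5 (11.339) was about level with the highest GF sample (11.335). The overlap of control with DM samples rested on control replicate 5 alone, whereas control and GF samples overlapped without it. The array of control replicate 5 had a reduced chi-square of 3.25 to 4.09 with the other control arrays, and of 1.15 with DM replicate 1. The means were 11.15 ± 0.158 (SD, n = 4) in control, 11.27 ± 0.102 (n = 3) in DM and 11.27 ± 0.101 (n = 3) in GF hearts.

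**Figure D1:**
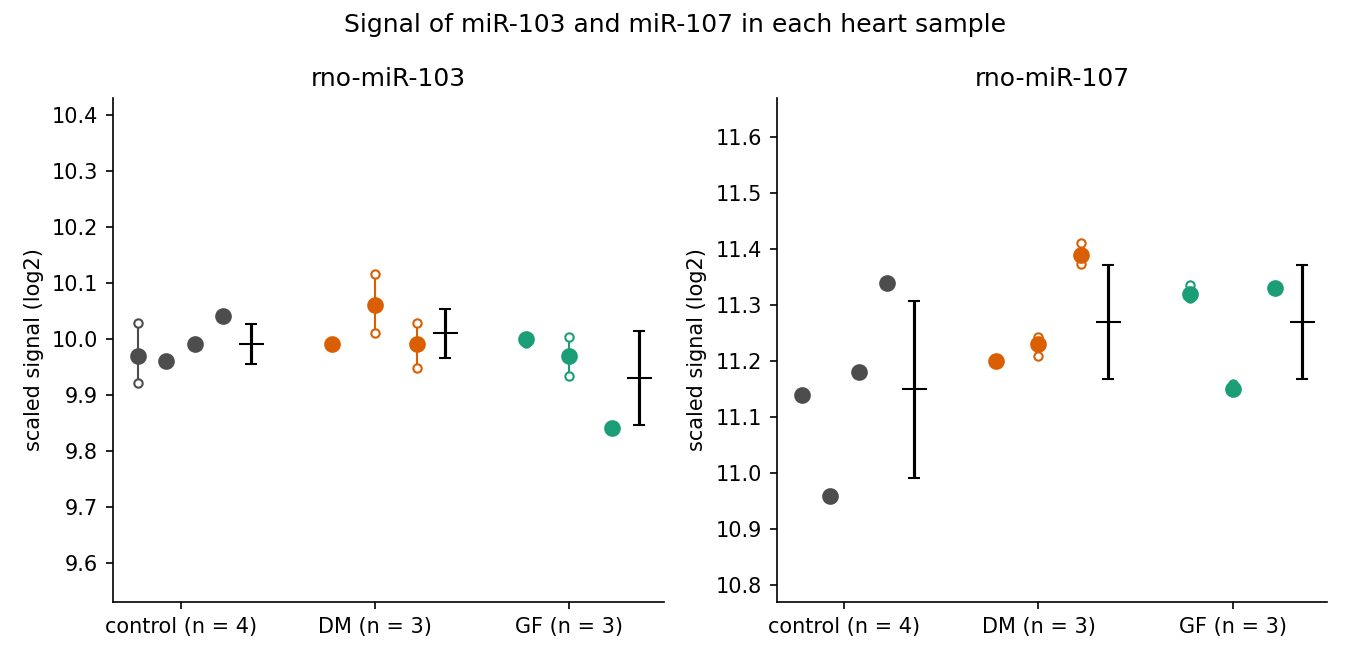
Scaled log2 signal (vertical axes, each spanning the same number of log2 units) of miR-103 and miR-107 in control, DM and GF hearts. Filled points are distinct samples, small open points are the arrays averaged into one, and black bars are the mean ± SD; the groups overlap for both miRNAs, and miR-103 varies over 0.22 against 0.44 for miR-107.

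The first question was whether sustained high glucose went with a different level of either miRNA. The difference between DM and control hearts was 0.021 ± 0.067 (SE; 95% interval -0.13 to 0.17) for miR-103, with an adjusted p of 0.933 by limma with Benjamini-Hochberg adjustment. For miR-107 it was 0.12 ± 0.10 (interval -0.11 to 0.35, limma adjusted p = 0.664). As folds, the intervals ran from 0.914 to 1.13 for miR-103 and from 0.929 to 1.27 for miR-107. Neither miRNA was called in this comparison, and of the 165 miRNAs tested 0 (0%) were, while 14 had an unadjusted limma p under 0.05.

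Hearts after glucose fluctuation were compared with control hearts next. The difference was -0.057 ± 0.067 (interval -0.21 to 0.093, limma adjusted p = 0.592) for miR-103. For miR-107 it was 0.12 ± 0.10 (interval -0.11 to 0.35, limma adjusted p = 0.481). The fold intervals were 0.866 to 1.07 and 0.927 to 1.27. Neither miRNA was among the 13 of 165 tested miRNAs called here (7.88%, of which 5 or 3.03% were higher and 8 or 4.85% lower). The split of these calls depended on the scaling. It was 15 higher and 1 lower with the 75th percentile taken over all probes, 16 and 2 without scaling, 6 and 1 with quantile normalization, 3 and 13 with the total gene signal, and 2 and 0 with the authors' deposited values. With the replicate number as a block on all 15 arrays the number of calls was 50, against 60 on the same arrays without the block. The number of calls also rested on single samples. Leaving out control replicates 1 and 3 gave 0 calls, and so did leaving out control replicate 2, control replicate 4, or GF replicates 2 and 4. The number was 28 with control replicate 5 left out, 24 with DM replicates 3 and 5 left out, and 8 with GF replicate 6 left out. In none of these fits was miR-103 or miR-107 called.

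The study's title sets glucose fluctuation against sustained hyperglycaemia, and in that comparison the 2 miRNAs also stayed within the spread between samples. The difference between GF and DM hearts was -0.078 ± 0.072 (interval -0.24 to 0.082, limma adjusted p = 0.68) for miR-103. For miR-107 it was -0.0031 ± 0.11 (interval -0.25 to 0.24, limma adjusted p = 0.987). The fold intervals were 0.847 to 1.06 and 0.843 to 1.18. Of the 165 tested miRNAs 0 (0%) were called, and 18 had an unadjusted limma p under 0.05. When all 15 arrays were taken as independent samples, 1.82% of the tested miRNAs were called in DM against control (all lower), 36.4% in GF against control and 3.64% in GF against DM hearts (all lower), and again neither miR-103 nor miR-107 was among them. In that fit the limma adjusted p of miR-107 was 0.2813, 0.2707 and 0.8229, and that of miR-103 was 0.741, 0.6182 and 0.4318, in the same order. The 3 comparisons share samples, so their values are not independent of each other.

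Over the 3 comparisons, the widest fold interval bounds with this scaling were 0.847 and 1.13 for miR-103, and 0.843 and 1.27 for miR-107. Without scaling between arrays they were 0.702 and 1.74 for miR-103, and 0.744 and 1.86 for miR-107. With the scaling, of the 165 tested miRNAs, 6 had a smaller standard error than miR-103 and 57 had a smaller one than miR-107. In the comparison of DM with control hearts, 144 of the 165 had a larger absolute difference than miR-103 and 75 a larger one than miR-107. In GF against control hearts these numbers were 129 and 99, and in GF against DM hearts 110 and 163. The rank of these standard errors depended on the scaling: without it, 41 of the 165 had a smaller one than miR-103 and 87 a smaller one than miR-107. In whole hearts, fewer cells of a type and less RNA per cell cannot be told apart.

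**Figure D2:**
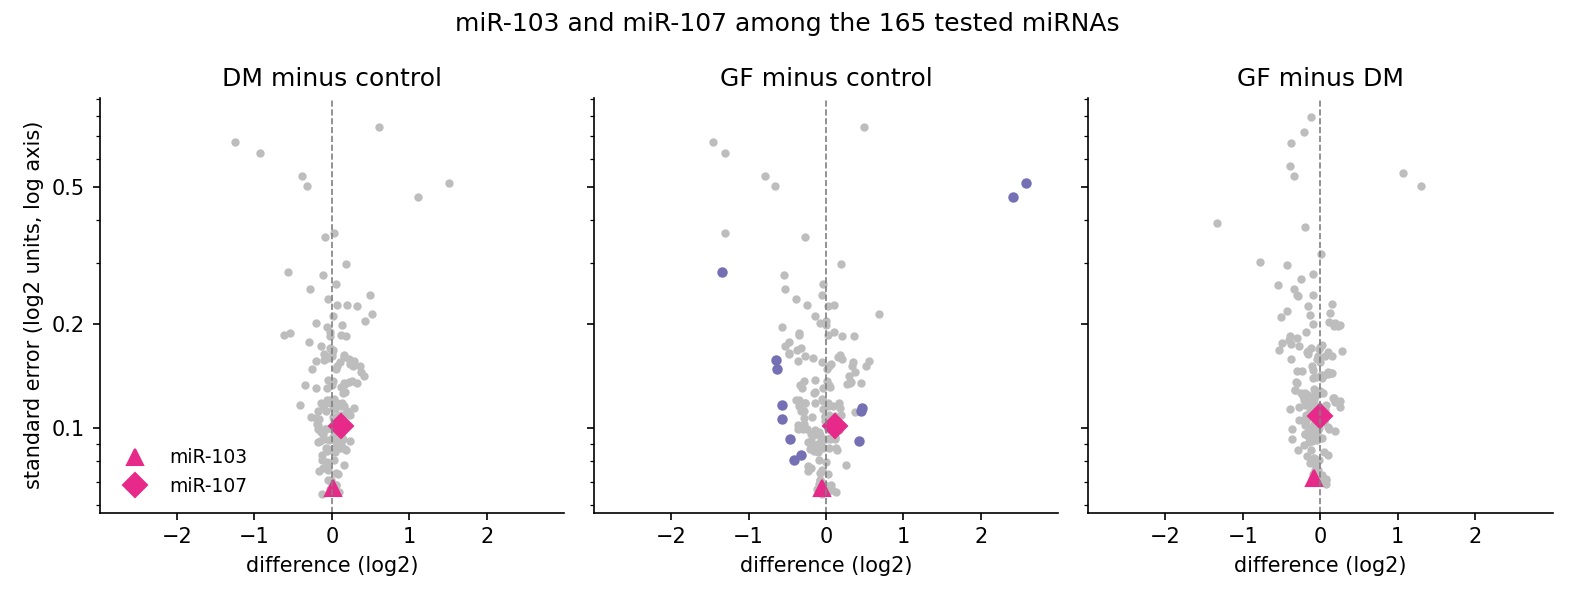
Difference (horizontal axes, log2) against its standard error (vertical axis, log scale) for each of the 165 tested miRNAs in the 3 comparisons. Triangles are miR-103 and diamonds miR-107, purple points are other miRNAs called by limma and grey points those not called; miR-103 lies near the lower tip of each cloud, with 6 miRNAs at a smaller error.

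The differences of miR-103 lay close to the middle of all tested miRNAs. The median difference over the 165 was 0.0273 in DM against control, -0.0548 in GF against control and -0.084 in GF against DM hearts. miR-103 departed from these medians by -0.006, -0.002 and 0.006. miR-107 lay above them by 0.094, 0.173 and 0.081, which is less than the standard error of its difference except in GF against control hearts. The comparison with the median was repeated in 25 other fits of the same samples, 10 of which left out 1 sample each. In DM against control hearts the difference of miR-107 was above the median of all tested miRNAs in 25 (by 0.004 to 0.144). In GF against control hearts it was above in 25 (by 0.118 to 0.226). In GF against DM hearts it was above in 24, and at -0.003 with no filter, where all 350 miRNAs entered the median. This is a description with no test of its own.

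GF arrays were brighter on average, and the sign of the small differences depended on the scaling between arrays. Without scaling, miR-103 had a log2 signal of 9.95 ± 0.193 (SD, n = 4) in control, 9.84 ± 0.214 (n = 3) in DM and 10.21 ± 0.251 (n = 3) in GF hearts. miR-107 was at 11.11 ± 0.252, 11.10 ± 0.235 and 11.55 ± 0.258 in the same order. The GF minus control difference then became 0.26 for miR-103 and 0.44 for miR-107, where the median of all tested miRNAs was 0.245. Relative to that median, miR-103 was higher by 0.019 and miR-107 by 0.194, close to the values with scaling. Neither was called without scaling (limma adjusted p = 0.385 and 0.173), although the fold interval of miR-107 was then 1.01 to 1.82.

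**Figure D3:**
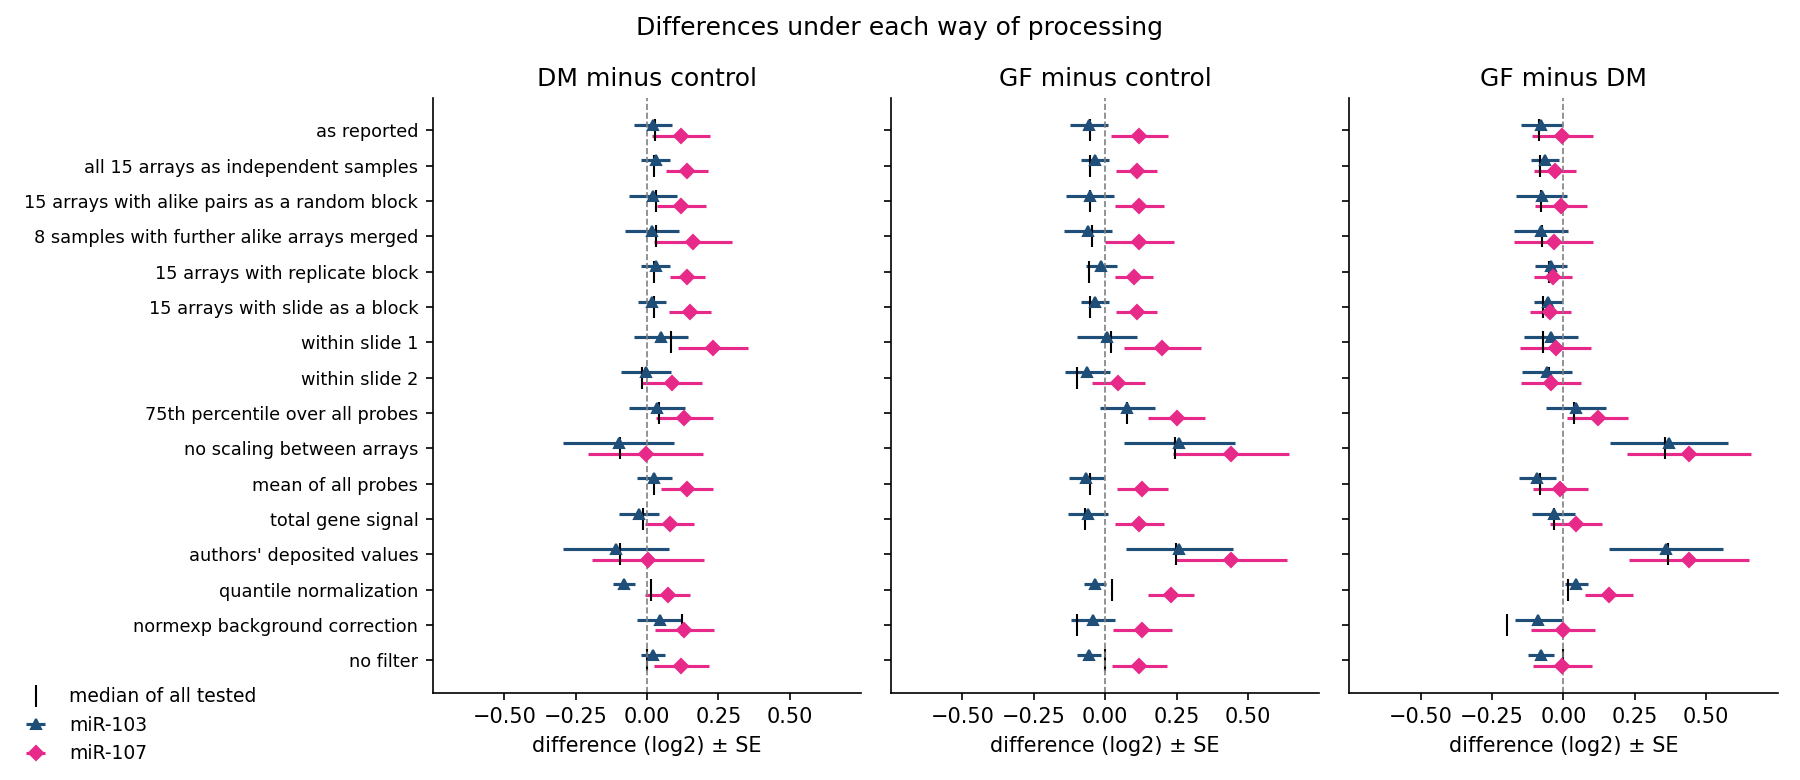
Difference (horizontal axes, log2, bars ± SE) of miR-103 (triangles) and miR-107 (diamonds) in each comparison under 16 ways of processing, the reported one on top. Black ticks are the median of all tested miRNAs; without scaling and in the authors' deposited values both miRNAs move to the right together with that median in the comparisons of GF hearts, to 0.26 and 0.44 against control.

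The second probe of each miRNA gave a separate reading on the same arrays. The dimmer miR-103 probe (A_26_P00001305) was at 8.49 ± 0.0614 (SD, n = 4) in control, 8.51 ± 0.0722 (n = 3) in DM and 8.41 ± 0.11 (n = 3) in GF hearts. Its difference was 0.028 between DM and control, -0.075 between GF and control and -0.10 between GF and DM hearts. The dimmer miR-107 probe (A_26_P00001309) was at 9.87 ± 0.126, 10.018 ± 0.114 and 9.999 ± 0.0939. Its differences were 0.15, 0.13 and -0.019. All 6 had the sign of the brighter probe, and the limma adjusted p, over the 300 probes tested, lay between 0.360 and 0.944. Across the 10 samples, the probes of miR-107 had Pearson's r = 0.96 (permutation p = 1e-05, the smallest that 100000 resamples give, adjusted p = 6e-05 over 6 relations; Spearman's rho = 0.95, permutation p = 0.00015). Without the 2 samples farthest from the median it was 0.96. The probes of miR-103 had r = 0.95 (permutation p = 0.00048, adjusted p = 0.00144; rho = 0.75, permutation p = 0.0174), and 0.70 without the 2 farthest samples. Across the 2 miRNAs, r lay between -0.12 and 0.0025 in all 4 probe pairs (permutation adjusted p = 0.995).

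**Figure D4:**
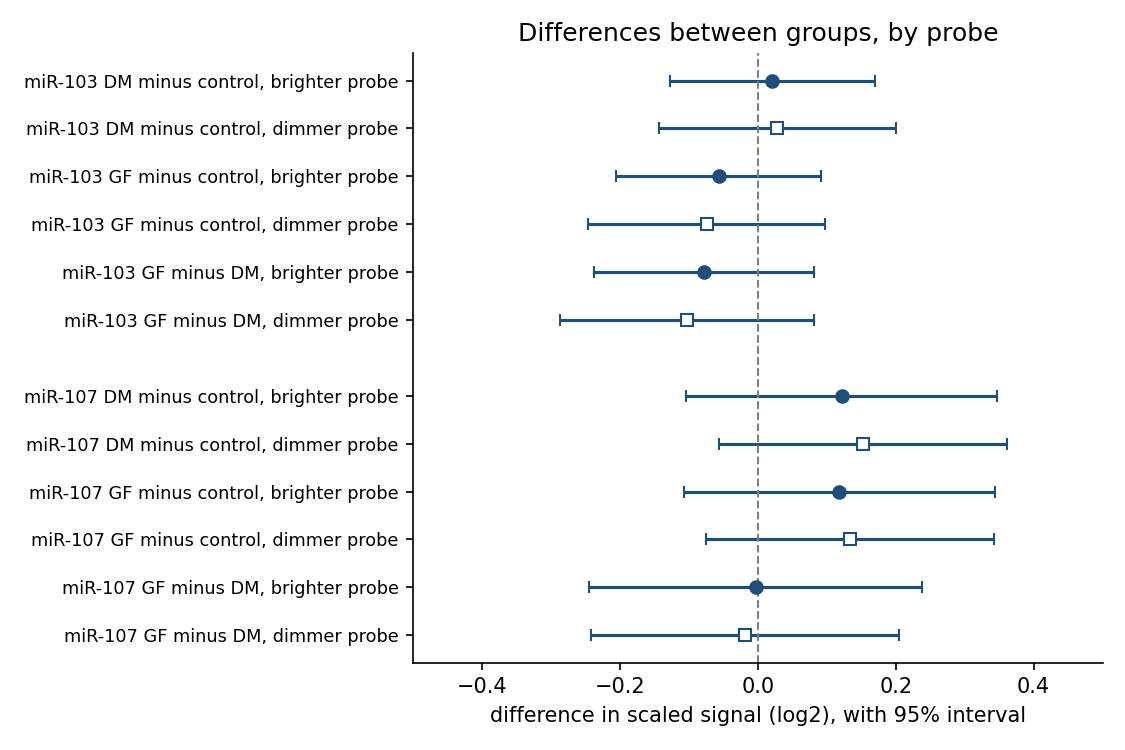
Difference in scaled signal (horizontal axis, log2) between groups for the brighter probe (filled points) and the dimmer probe (open squares) of miR-103 and miR-107, with 95% intervals from limma. The 2 probes of a miRNA fall on the same side of 0 in each comparison, and every interval includes 0.

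No linear relation between the 2 miRNAs was detected across the scaled samples. After scaling, Pearson's r between miR-103 and miR-107 was 0.0025 (n = 10, permutation p = 0.995) and Spearman's rho was 0.50 (permutation p = 0.144). Without DM replicates 2 and 4 and GF replicate 6, the samples farthest from the median of miR-103, r was 0.68. Without GF replicate 6 alone it was 0.49. In that sample miR-103 was at its lowest, 9.84, while miR-107 was at 11.33, near its highest. As deviations from the group means r was 0.10, and before scaling it was 0.89. The points share array, labelling and scaling.

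**Figure D5:**
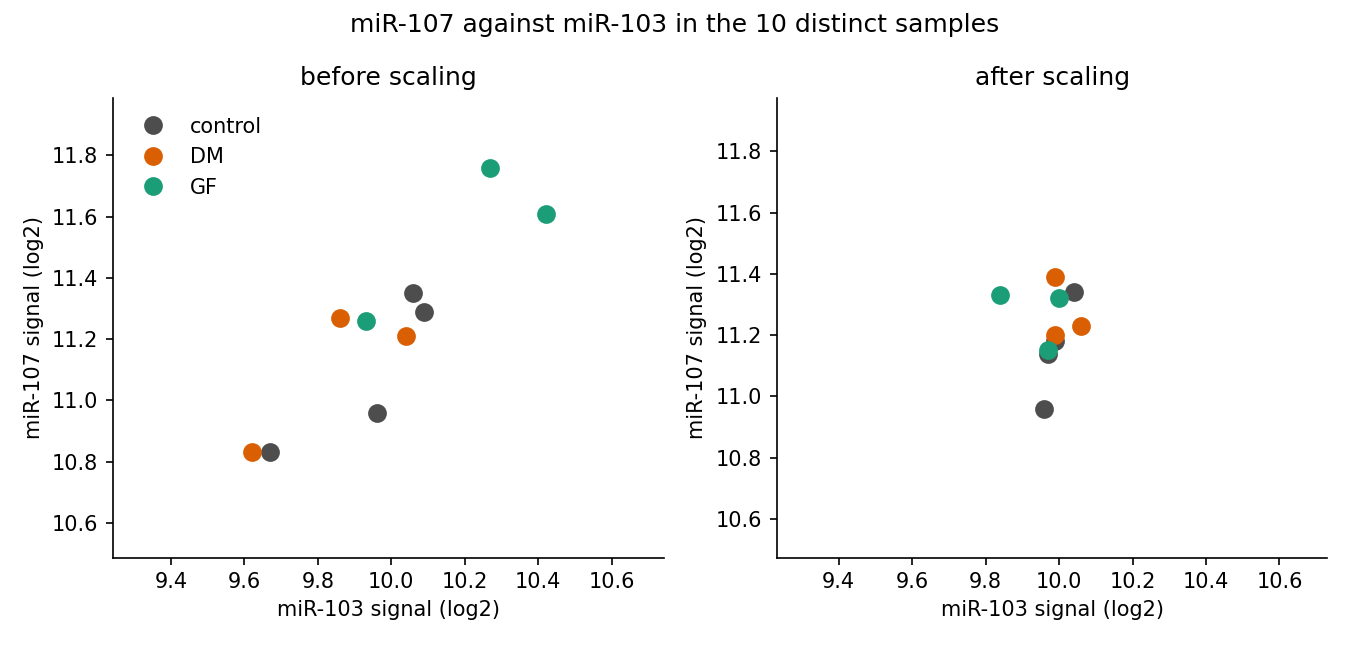
Log2 signal of miR-107 (vertical axes) against miR-103 (horizontal axes) in the 10 distinct samples, before scaling (left) and after (right), with equal spans on all axes and colours for control, DM and GF. Before scaling the points follow a rising line (r = 0.89); after it they form a compact cloud (r = 0.0025).

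The difference between both miRNAs within an array needs no scaling and shows whether they changed unequally. miR-107 minus miR-103 was 1.16, 0.99, 1.19 and 1.30 in control, 1.22, 1.16 and 1.40 in DM, and 1.33, 1.19 and 1.496 in GF hearts. The means were 1.16 ± 0.126 (SD, n = 4), 1.26 ± 0.126 (n = 3) and 1.34 ± 0.155 (n = 3). These sizes include the brightness of the probes, so that only their change between groups is read. The change was 0.10 between DM and control (exact two-sided permutation p = 0.4, adjusted 0.6 over 3 comparisons), where the smallest p the design allows is 0.0286. It was 0.18 between GF and control (exact permutation p = 0.171, adjusted 0.514). Between GF and DM it was 0.075 (exact permutation p = 0.6, adjusted 0.6), where no p under 0.1 can be reached. GF replicate 6 had the largest difference, and without it the change between GF and control was 0.096 and that between GF and DM was -0.0045.

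miR-103 tended to read higher on 1 of the 2 slides that carried the arrays, a comparison with no test of its own. Each of the 5 averaged pairs had an array on slide 1 and an array on slide 2. miR-103 was higher on slide 1 in 5 of 5 pairs, by 0.006 to 0.107 (mean 0.074 ± 0.0409, SD, n = 5), a size close to the differences between groups. miR-107 was higher on slide 1 in 3 of 5 pairs, with a mean of 0.007 ± 0.0271. Of the 165 tested miRNAs, 46 were higher on slide 1 in all 5 pairs (27.9%) and 8 were lower in all 5 (4.85%), so miR-103 shares this with many others. The median over the 165 of this mean difference was 0.040. With the total gene signal miR-103 was higher on slide 1 in 4 of 5 pairs. After quantile normalization the slide difference was not seen, and miR-103 was higher on slide 1 in 2 of 5 pairs. All 3 groups lay on both slides. Within slide 1 and slide 2, the difference of miR-103 was 0.048 and -0.004 for DM against control, 0.0059 and -0.062 for GF against control, and -0.042 and -0.058 for GF against DM hearts. For miR-107 the within-slide values were 0.23 and 0.089, then 0.20 and 0.046, then -0.027 and -0.043. No within-slide value was called for either miRNA.

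The tested miRNAs whose levels were most like those of miR-103 over the 10 samples, by Pearson's r among 164 others, were miR-340-5p (r = 0.81), miR-221 (0.80) and miR-148b-3p (0.77). miR-107 stood at rank 127 in that order. Those most like miR-107 were miR-664 (r = 0.88), let-7e (0.87) and miR-30c-2* (0.87), the last a minor arm of its hairpin, and miR-103 stood at rank 106. None of these 6 was called in any of the 3 comparisons. Of all tested miRNAs, 0% were called in DM against control, 7.88% in GF against control and 0% in GF against DM hearts. The limma adjusted p of these 6 lay between 0.16 (miR-221, GF against control) and 0.983 (miR-221, DM against control). With 10 samples and 164 candidates, high values of r at the top of such an order are a description only.

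Part of the seed of miR-103 and miR-107 recurs, shifted by 1 base, in the miR-15/16 family, whose members restrain cell division and survival in many tissues including heart. The 6 letters AGCAGC are bases 1 to 6 of miR-103 and miR-107 and bases 2 to 7 of these neighbours. The neighbours with the largest differences in GF against control hearts are printed to show that shift, with the seed in capitals (RefSeq, GRCr8).
miR-497-5p: cAGCAGCAcacugugguuugua
miR-503-5p: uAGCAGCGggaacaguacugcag
miR-195-5p: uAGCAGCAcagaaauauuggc
miR-15b-5p: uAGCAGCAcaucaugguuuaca
Of 7 neighbours listed, 6 were on the array and tested. In GF against control hearts, 0 were called higher and 1 lower, where 4.85% of all 165 tested miRNAs were called lower. The median difference was -0.22 beside -0.0548 over all 165. The miRNA called was miR-497, with a difference of -0.41 ± 0.081 (SE, limma adjusted p = 0.0194). Its level was 11.40, 11.38, 11.35 and 11.48 in control hearts and 11.03, 10.86 and 11.08 in GF hearts. It was named for its difference in this comparison, so these levels add no separate support. The call held in 13 of 25 other fits of the same samples, 10 of which left out 1 sample each. The difference was below 0 in all 25 (-0.47 to -0.09), with limma adjusted p from 0.000376 to 0.782. The call was lost when control replicates 1 and 3 were left out (0.0564), and likewise for control replicate 2 (0.0614), control replicate 4 (0.0637) and GF replicates 2 and 4 (0.0978). Within slide 1 and slide 2 the limma adjusted p was 0.0884 and 0.086, and without scaling the difference was -0.09 (0.782). The difference was -0.23 for miR-195 (limma adjusted p = 0.087) and -0.20 for miR-15b (0.121). For miR-503 it was -0.39 (0.278), but its levels were near the floor of 4.3 and GF replicate 6 was at that floor, so the size of this difference and its place in the order depend on the floor. In DM against control and in GF against DM hearts 0 of 6 were called, with medians of -0.061 and -0.13. Whether miR-103 or miR-107 changed differently from miR-497 was not tested.

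A second list held 22 miRNAs linked to insulin action or glucose handling in other tissues. Of these 20 were tested, and 0 were called in each of the 3 comparisons, beside 0%, 7.88% and 0% of all tested miRNAs in DM against control, GF against control and GF against DM hearts. Their median difference was 0.12 in DM against control, -0.041 in GF against control and -0.13 in GF against DM hearts, beside 0.0273, -0.0548 and -0.084 over all tested miRNAs. The 4 with the largest differences in GF against control hearts were miR-34a, a p53 target, at 0.68 (limma adjusted p = 0.0745) and miR-9, a neural miRNA that also acts in islets, at -0.54 (0.0822). The others were miR-223, a myeloid miRNA linked to glucose uptake, at 0.51 (0.0611) and miR-126, an endothelial miRNA, at -0.37 (0.0542). The mean level of miR-9 was 4.53 in GF and 5.07 in control hearts, near the floor of 4.3. The size of its difference and its place among these 4 may therefore depend on that floor.

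The 5 heart muscle markers, which define the labelled tissue, were all detected and tested, and their summed scaled signal was 123962 to 170312 in control, 126348 to 135598 in DM and 114771 to 132705 in GF hearts. The marker calls in this paragraph stand beside 3.03% called higher and 4.85% called lower among all 165 tested miRNAs in GF against control hearts. In DM against control and in GF against DM hearts 0% were called. One of the heart muscle markers, miR-208, was called lower in GF than in control hearts (-1.34, limma adjusted p = 0.0194). This call was lost with quantile normalization (0.0637) and in further fits named below. The 4 epithelial markers summed to 88 to 166 in control, 143 to 443 in DM and 361 to 479 in GF hearts. Of these, 2 were called higher in GF than in control hearts, miR-141 (2.41) and miR-200c (2.58). The others, miR-200a and miR-200b, differed by 0.07 and 0.02 and were not called. The control sums were low beside a floor of 19.7 for each miRNA, so the size of the called differences may depend on that floor. Of 6 leukocyte markers 5 were on the array, summing to 6192 to 6487, 5289 to 6546 and 4991 to 5694, and 2 of them, miR-142-5p (-0.64) and miR-146a (-0.46), were called lower in GF than in control hearts. The other leukocyte markers were not called, with differences of -0.48 for miR-142-3p, 0.51 for miR-223 and -0.01 for miR-150. Without scaling miR-142-5p was at -0.32 (limma adjusted p = 0.316) and miR-146a at -0.14 (0.615), and both calls were also lost with the percentile over all probes (0.155 and 0.156). The call of miR-142-5p was lost with quantile normalization too (0.0845). Every marker call in this paragraph was also lost wherever the comparison of GF with control hearts gave 0 calls. That was so within slide 1, within slide 2, with 8 samples, with no filter and in some of the fits lacking a single sample. The 2 red cell, 2 endothelial and 2 smooth muscle markers were tested and 0 were called. In control, DM and GF hearts the red cell markers summed to 6132 to 7329, 3438 to 6161 and 4591 to 5920. The endothelial markers summed to 19194 to 23754, 17449 to 20734 and 15615 to 16927 in that order. For the smooth muscle markers the sums were 11663 to 18877, 14709 to 16426 and 14184 to 18180. The liver marker miR-122, 1 of 2 neural markers (miR-124) and 1 of 2 islet markers (miR-375) were not above background on enough arrays to be tested. The tested neural marker miR-9 was at a signal of 20 to 39 over all samples and the tested islet marker miR-7a at 70 to 97, and neither was called. The part of these markers in the values of miR-103 and miR-107 was not tested.

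The authors' deposited tables were also searched for both miRNAs. In the authors' deposited table of 35 miRNAs from an uncorrected test of the 3 groups, 0 of the 2 are listed. Both are in the authors' deposited table of 149 miRNAs that passed a signal filter. The values of that table, which were not scaled between arrays, gave GF minus control differences of 0.26 for miR-103 and 0.44 for miR-107 (limma adjusted p = 0.372 and 0.161).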

How the data were processed

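Total RNA (100 ng) of rat hearts was labelled with Cy3 and hybridised to Agilent miRNA arrays, per the labels' protocols. Scans were read by Agilent Feature Extraction 9.5.3.1, per the file headers. Each deposited array file gives a background-subtracted intensity for every spot, without scaling across arrays. The authors' deposited filtered table holds log2 values, recomputed here as the log2 total gene signal minus the control mean (largest difference 2.05e-06). The authors' deposited table of comparisons holds a p-value per miRNA. For the deposited tables, the software was not given in the sources used here.

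Flagged spots (153 to 296 of the 7000 rat miRNA spots per array) were dropped. Signals were scaled to the 75th percentile over the 254 probes above background on all 15 arrays, set to a floor of 4.3 (log2) where lower, and log2-transformed. A probe was above background where more than 0.5 of its spots were. Each probe took the mean of its spots, and each miRNA its brightest probe. Testing required a miRNA to be above background on 3 or more of the 5 arrays in some group (165 tested, 185 not). Arrays of 1 group with a reduced chi-square under 1 over 156 miRNAs were averaged. Contrasts were fitted on the 10 distinct samples with limma 3.58.1 (R 4.3.3), two-sided, threshold 0.05. The fit was also run on simulated data with planted differences far larger than those of miR-103 and miR-107. That run does not bear on finding differences of their size. Sums, permutation tests and figures used Python 3.11.15, pandas 2.3.3, numpy 2.4.6, scipy 1.17.1 and matplotlib 3.10.9. All 8 sequences sought were matched to RefSeq by name.

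The labels' replicate numbers were checked as pairs through the correlation of deviations from group means. All 4 control and GF pairs were over 0.1 (0.15 to 0.47), but 2 of 5 control and DM pairs and 0 of 4 DM and GF pairs were. Averaged arrays carry different numbers, so these pairs are not independent. Control and GF arrays of the same number also shared a slide, so number and slide cannot be told apart there.

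The members and lists were chosen with earlier results of these data known. Named beyond them were the 3 miRNAs with the highest r to each member and, per list, the up to 4 members with the largest absolute difference between GF and control. Marker miRNAs named as called, and the comparison of slides within pairs, were chosen after their values were seen.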

Additional observations from a re-analysis of the deposited data

How the results depend on the processing

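Neither miR-103 nor miR-107 was called in any of 150 values from 25 alternatives. The lowest limma adjusted p was 0.0899 (miR-107, GF minus control, quantile normalization), and 5 values had an unadjusted limma p under 0.05. These fits reuse the same samples. Most of them in DM against control and in GF against DM, and some in GF against control, called no miRNA at all. The absence of a call there is not particular to miR-103 and miR-107. The sign of the small differences of miR-103 and miR-107 was not stable, and the cause was not tested. For miR-103, DM minus control became -0.004 within slide 2, -0.10 without scaling, -0.028 with the total gene signal, -0.11 in the authors' deposited values and -0.081 with quantile normalization. GF minus control became 0.0059 within slide 1, 0.078 with the percentile over all probes, 0.26 without scaling and 0.26 in the deposited values. GF minus DM became 0.044 (percentile over all probes), 0.37 (no scaling), 0.36 (deposited values) and 0.045 (quantile normalization). For miR-107, DM minus control became -0.0047 without scaling, and GF minus DM became 0.12 (percentile over all probes), 0.44 (no scaling), 0.044 (total gene signal), 0.44 (deposited values) and 0.16 (quantile normalization). miR-107 GF minus control kept its sign in all 25 alternatives. The correlation of both miRNAs became -7e-05 with 8 samples after merging further alike arrays, -0.58 with quantile normalization, -0.064 with the mean of all probes, -0.27 with the total gene signal, and 0.89 without scaling and 0.88 in the deposited values.

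The number of called miRNAs in GF against control (13) became 60 with all 15 arrays as independent samples, 57 with slide as a block, 50 with the replicate block, 21 with the mean of all probes, 7 with quantile normalization and 2 in the deposited values. It was 0 with 8 samples, within slide 1, within slide 2 and with no filter. In DM against control (0) it became 3 with 15 arrays, 4 with the replicate block, 3 with slide as a block and 2 within slide 2. In GF against DM (0) it became 6 with 15 arrays, 1 with the replicate block, 5 with slide as a block, 1 without scaling and 1 with normexp background correction.

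Leaving out each sample in turn, miR-103 ran from -0.0041 to 0.038 (DM minus control), -0.088 to -0.0093 (GF minus control) and -0.11 to -0.03 (GF minus DM). miR-107 ran from 0.055 to 0.18, 0.052 to 0.18 and -0.038 to 0.056 in that order. The counts of calls ran from 0 to 2 (2 without DM replicate 1), 0 to 28 and 0 to 6 (6 without DM replicates 3 and 5). The change of miR-107 minus miR-103 ran from 0.029 to 0.15, 0.096 to 0.25 and -0.0045 to 0.15, and the correlation from -0.13 to 0.49.

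Over 13 pairs of arrays with 1 replicate number, the correlation of deviations ran from -0.53 to 0.47 and was over 0.1 in 6, of which 4 were the 4 pairs of control and GF arrays. Of 14 arrays, 7 correlated best with their own number. The numbers met the bar for pairing in control against GF, not in the comparisons with DM. Control and GF arrays of the same number lay on the same slide, as did DM and GF arrays. A shared number and a shared slide therefore cannot be told apart in these pairs. With the replicate block on 15 arrays, the differences were 0.03, -0.013 and -0.043 for miR-103 and 0.14, 0.10 and -0.035 for miR-107, and the replicate block changed no call of either miRNA. The normexp correction used the median spot signal, the foreground column in the files used here. With 10 distinct samples, precision is limited by their number.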
